A study of Mus musculus with 8 samples.

Results

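Lipoxygenases are the enzymes that add oxygen to arachidonic, linoleic and related fatty acids. Described here are 7 mouse lipoxygenase genes and Alox5ap, which encodes the helper protein of 5-lipoxygenase, in MC903-treated skin with and without phytic acid. The 8 genes were chosen by name (Alox12b, Aloxe3, Alox12e, Alox12, Alox8, Alox15, Alox5 and Alox5ap), and all 8 were found among the 21885 named genes of the deposited table. RNA of mouse skin was sequenced from 4 libraries of skin treated with MC903 plus phytic acid and 4 libraries of skin treated with MC903 alone. MC903, also called calcipotriol, is a vitamin D analogue used to induce inflammation like that of atopic dermatitis in mouse skin. Phytic acid is the inositol hexaphosphate in which plant seeds store phosphate. Both groups received MC903 and no untreated group was analysed here, so each difference is between MC903 skin with and without added phytic acid. The sources used here do not give strain, age, body site, doses or the number of mice. P-values therefore measure the spread between libraries, which may be technical.

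In mouse and human epidermis, the lipoxygenases encoded by Alox12b and Aloxe3 act one after the other on linoleate bound to long ceramides. The product is used to attach lipids to the protein shell of the dead corneocyte, and loss of either human gene causes ichthyosis. In leukocytes, 5-lipoxygenase and the membrane protein encoded by Alox5ap make leukotriene A4, the precursor of the inflammatory leukotrienes. The other enzymes make hydroperoxy fatty acids with oxygen at different carbons.

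Values are FPKM (fragments per kilobase of exon, scaled to library size), which allow levels of different genes to be set side by side. Fold changes are differences of log2(FPKM + 1), MC903 plus phytic acid minus MC903, so the change of low genes is understated. A gene was called at an adjusted p under 0.05 (limma, Benjamini-Hochberg over all 12165 genes tested). The library totals recovered from the values were 38310034 to 42997271 reads with phytic acid and 31676934 to 37639476 reads with MC903 alone. The members' values rest on 68 to 17408 reads per library. The keratinocyte keratins Krt5 and Krt1 overlapped between the groups, at 709 to 971 FPKM and 792 to 2090 FPKM over the 8 libraries. Krt14 and Krt10 did not overlap. Krt14 was at 1160 to 1730 FPKM with phytic acid and 3060 to 6640 FPKM with MC903 alone. Krt10 was at 1920 to 2770 FPKM with phytic acid and 287 to 1710 FPKM with MC903 alone. Hair follicle markers did not all follow the groups. Tchh, the trichohyalin gene and the single hair follicle marker tested, was called lower, at 17.8 to 25.3 FPKM with phytic acid and 437 to 904 FPKM with MC903 alone (log2 fold change -4.67). MC903 replicate 3 stood apart in hair follicle keratins. Krt71, a keratin of the inner root sheath, was at 1370 FPKM there, against 0.0289 to 22.3 FPKM in the other 3 MC903 libraries and at most 0.0898 FPKM with phytic acid. In MC903 replicates 1 and 4, Krt71 was at 0.0289 and 0.135 FPKM and Krt28 at 0.525 and 0.461 FPKM. With phytic acid Krt28 was at 0.601 to 1.17 FPKM, so the groups overlapped for both genes. Krt25 did not overlap, at most 0.0525 FPKM with phytic acid and at least 0.108 FPKM with MC903 alone. Among the MC903 libraries, replicate 3 also had the highest Krt10 (1710 FPKM) and the lowest wound keratins Krt6a (418 FPKM) and Krt16 (1400 FPKM). Krt1 and Krt17 did not follow this, with Krt1 highest in replicate 2 (2090 FPKM) and Krt17 lowest in replicate 1 (648 FPKM). Because MC903 replicate 3 stood apart, results on the members are also given without it. In tissue RNA, fewer cells of a type and less RNA per cell cannot be told apart.

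On chromosome 11, 6 of the genes lie in a pair of clusters, in coordinates of GRCm38 (the assembly that mm10 names) from GENCODE. Aloxe3, Alox12b and Alox8 lie within 71.9 kb (chr11:69125896-69197843), and Alox12, Alox12e and Alox15 within 111 kb (chr11:70241457-70352031). The clusters are 1040 kb apart. Alox5 lies at chr6:116410077-116461178 and Alox5ap at chr5:149264767-149288153. The 8 genes are protein-coding, and each value sums over the exons of the gene. Alox5ap overlaps an antisense gene and an rRNA gene on the opposite strand, so with the strand setting not given its value may hold reads from these.

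The make-up of lipoxygenase RNA differed between the groups. With phytic acid, Alox12e, Alox15, Alox5ap and Aloxe3 rose, Alox12b, Alox5, Alox8 and Alox12 did not pass the test, and Alox12e was the most abundant member. Of the 8 members, 4 were called higher, against 14.2% of all genes tested, and 25.8% of all genes were called in either direction. None was called lower by limma, against 11.6% of all genes tested. At an unadjusted p under 0.05, 4 were higher and 1 (Alox12) was lower. On the recovered reads, limma voom called 3 higher and 0 lower. Both groups were fully separate for 3 members (Alox12e, Alox15 and Alox5ap, all higher), which held for 14.3% of genes tested in that direction and 27.3% in either.

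**Figure D1:**
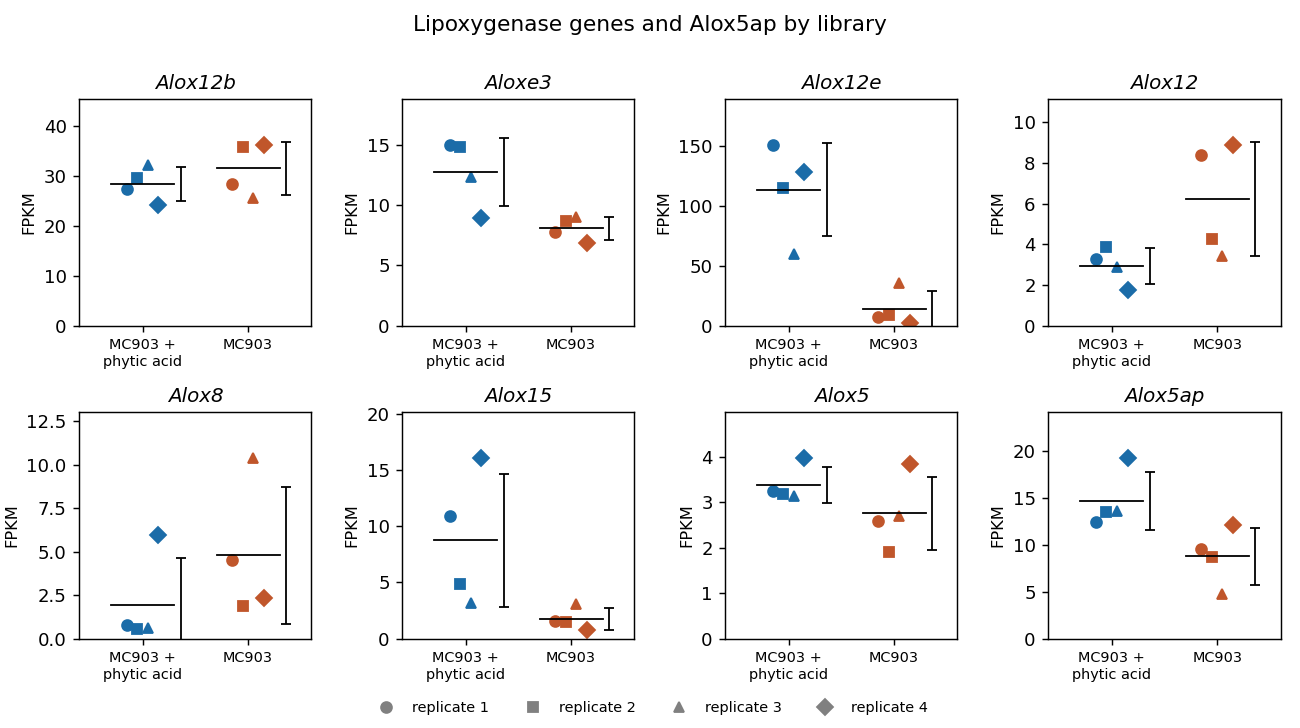
FPKM of each gene (vertical axis, from 0, own scale per panel) in the 4 libraries with MC903 plus phytic acid (left, blue) and the 4 with MC903 alone (right, orange). Symbols mark replicate numbers, lines the means and bars the SD (cut at 0). Alox12e lies at 59.7 to 151 FPKM with phytic acid and at 2.68 to 36 FPKM without it, whereas the groups of Alox12b overlap.

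Alox12b and Aloxe3, the enzymes of the corneocyte lipid route, gave different results. Alox12b, the 12R-lipoxygenase that performs the first oxidation, was at 27.5, 29.7, 32.3 and 24.2 FPKM in replicates 1 to 4 with phytic acid, against 28.4, 35.9, 25.7 and 36.3 FPKM with MC903 alone. The groups overlapped, with MC903 replicates 2 and 4 above every phytic acid library and phytic acid replicate 4 below every MC903 library. The log2 fold change was -0.14 ± 0.14 (SE, 95% interval -0.45 to 0.17) and was not called (adjusted p = 0.492 by limma; -0.23 and 0.204 without MC903 replicate 3). Aloxe3 encodes the epidermal lipoxygenase that turns the hydroperoxide made by the first enzyme into an epoxy alcohol. It was at 15.0, 14.8, 12.3 and 8.94 FPKM with phytic acid, against 7.81, 8.68, 8.98 and 6.83 FPKM with MC903 alone. Only the lowest phytic acid library, replicate 4, fell inside the range of MC903. Aloxe3 averaged 12.7 ± 2.81 FPKM with phytic acid and 8.07 ± 0.967 FPKM with MC903 alone (SD, n = 4 each), a log2 fold change of 0.58 ± 0.16 (SE; adjusted p = 0.0253 by limma). The call was lost without MC903 replicate 1 (adjusted p = 0.0658) or 4 (0.0710), and without phytic acid replicate 1 (0.0678) or 2 (0.0665). It held without MC903 replicate 3 (0.63, adjusted p = 0.0220). Centred on pan-leukocyte genes, which moves the median of all genes to -0.63, the difference was -0.10 ± 0.26 (SE; adjusted p = 0.727).

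The ratio of these genes within a library does not depend on how libraries are scaled. The Aloxe3 to Alox12b ratio was 0.543, 0.496, 0.381 and 0.369 with phytic acid, against 0.275, 0.242, 0.350 and 0.188 with MC903 alone. Every phytic acid library lay above every MC903 library. The log2 ratio differed by 0.78 between the groups (exact permutation p = 0.0286, two-sided, the smallest that 70 splits allow; 0.0429 adjusted over the 3 ratios tested). Without MC903 replicate 3 the difference was 0.93 (exact permutation p = 0.0286, the smallest possible with 1 library left out). Without any 1 phytic acid library p was 0.0571 by that test, although the groups stayed fully separate.

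Alox12e encodes a 12S-lipoxygenase of mouse epidermis, for which humans have only a pseudogene. It was at 151, 115, 59.7 and 128 FPKM with phytic acid, against 7.05, 9.23, 36 and 2.68 FPKM with MC903 alone. The groups did not overlap, and the highest MC903 value came from replicate 3. That library had high hair keratins, and also the highest Krt10 and lowest Krt6a and Krt16 of the MC903 libraries. Alox12e averaged 114 ± 38.9 FPKM with phytic acid and 13.7 ± 15.1 FPKM with MC903 alone (SD, n = 4 each). The log2 fold change was 3.40 ± 0.60 (SE, 95% interval 2.06 to 4.74; adjusted p = 0.00392 by limma). Without MC903 replicate 3 it was 4.01 (adjusted p = 0.000153), and with any single library left out it ranged from 2.90 to 4.01, always called. The Alox12e to Alox12b ratio was 5.50, 3.87, 1.85 and 5.30 with phytic acid, against 0.248, 0.257, 1.40 and 0.0737 with MC903 alone. The log2 difference was 3.73 (exact permutation p = 0.0286, 0.0429 adjusted over the 3 ratios). Without any 1 phytic acid library p was 0.0571 by that test, although the groups stayed fully separate.

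**Figure D2:**
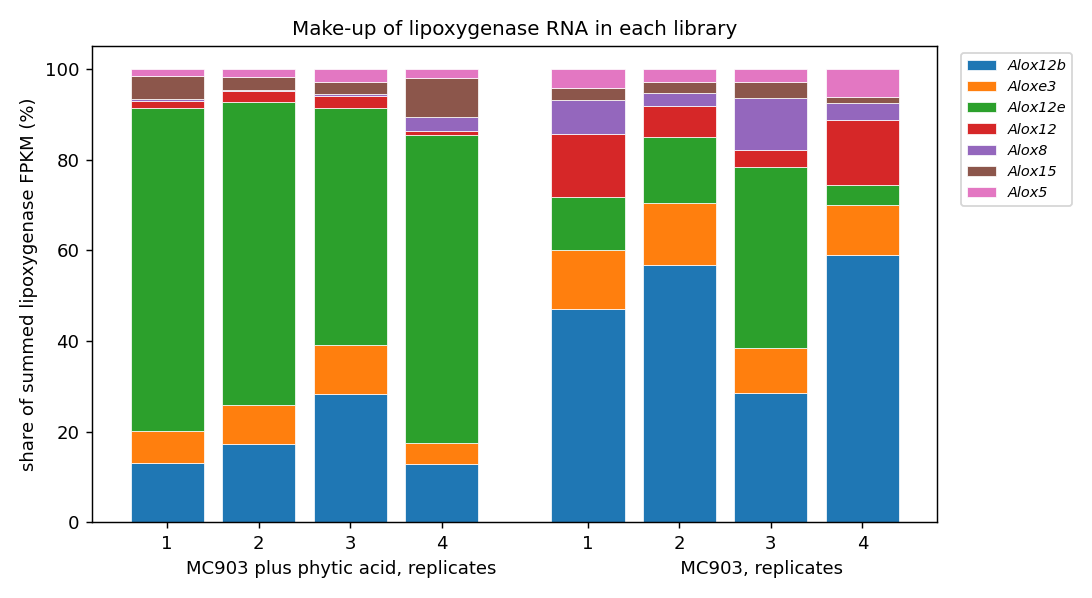
Share of the summed FPKM of the 7 lipoxygenase genes (vertical axis, percent) held by each gene in each library, MC903 plus phytic acid on the left and MC903 alone on the right. Alox12e holds 52.3% to 71.4% of the sum with phytic acid, and Alox12b holds the most in 3 of the 4 MC903 libraries.

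The order of levels differed between the groups. With phytic acid Alox12e stood first and Alox12b second at a mean of 28.4 FPKM, and the ranges of Alox12e, Alox12b and the next gene, Alox5ap, did not overlap. From Alox5ap (14.7 FPKM) down through Aloxe3 (12.7), Alox15 (8.74), Alox5 (3.39), Alox12 (2.95) and Alox8 (1.95), each neighbour in the order overlapped the next. With MC903 alone the order by mean FPKM was Alox12b (31.6), Alox12e (13.7), Alox5ap (8.78), Aloxe3 (8.07), Alox12 (6.23), Alox8 (4.77), Alox5 (2.76) and Alox15 (1.72), and every neighbour overlapped the next. As a share of the summed FPKM of the 7 lipoxygenases, Alox12e held a median of 67.4% with phytic acid and 13.1% with MC903 alone. Alox12b held a median of 15.1% with phytic acid and 51.9% with MC903 alone. MC903 replicate 3 was the exception, with 39.9% for Alox12e and 28.5% for Alox12b. The summed FPKM of the 7 genes was 114 to 212 with phytic acid and 60.3 to 90.2 with MC903 alone.

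Alox12 and Alox8 were lower on average with phytic acid but did not pass the test. Alox12 encodes the 12S-lipoxygenase named for platelets, which epidermis also makes. It was at 3.28, 3.86, 2.88 and 1.78 FPKM with phytic acid, against 8.38, 4.25, 3.41 and 8.90 FPKM with MC903 alone. The groups overlapped through phytic acid replicate 2 and MC903 replicate 3. Its log2 fold change of -0.82 ± 0.28 (SE, 95% interval -1.45 to -0.18) had an adjusted p of 0.0592 by limma, and without MC903 replicate 3 it was -1.02 (adjusted p = 0.0149). The call also appeared with median-of-ratios scaling (0.0493), quantile normalization (0.0476), centring on basal keratinocyte genes (0.0412) and library weights (0.00477). Of 7 platelet markers, Gp1bb was listed at 0 in all 8 libraries, and Gp9 and Gp6 at 0 in all 4 phytic acid libraries and at most 0.243 FPKM with MC903 alone. Itga2b was at 0.866 to 1.62 FPKM with phytic acid and 1.5 to 1.78 FPKM with MC903 alone, and Gp1ba at 0.569 to 1.12 FPKM with phytic acid and 0.482 to 0.547 FPKM with MC903 alone. Pf4, a chemokine gene of platelets and some macrophages, was at 41.1 to 84.4 FPKM with phytic acid and 23.8 to 124 FPKM with MC903 alone. The summed FPKM of the 7 platelet markers was 43.9 to 86.5 with phytic acid and 26.0 to 129 with MC903 alone, and the part of platelets in the Alox12 values was not tested.

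Alox8 encodes the 8S-lipoxygenase of mouse skin, the counterpart of human ALOX15B, known to be induced by phorbol ester. It was at 0.765, 0.528, 0.601 and 5.93 FPKM with phytic acid, against 4.50, 1.88, 10.4 and 2.34 FPKM with MC903 alone. Of the phytic acid libraries, 3 were below every MC903 library, and replicate 4 was above 3 of the 4 MC903 libraries. The log2 fold change was -1.08 ± 0.55 (SE; adjusted p = 0.180 by limma). Without phytic acid replicate 4 it was -1.60 (adjusted p = 0.0304), and without MC903 replicate 3 it was -0.68 (adjusted p = 0.328).

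Alox12 and Alox12e lie in the same cluster and had log2 fold changes of opposite sign (-0.82, not called, and 3.40), while Alox12b, of the other cluster, was at -0.14 (not called). The bases just upstream of these 3 genes are shown for that contrast, from RefSeq (GRCm38.p6), 5′ to 3′ on the strand of the gene and only as far as the start site that lies farther upstream in RefSeq or GENCODE. Capitals mark the GC box (GGGCGG, either strand), a binding sequence of Sp1 and related factors.
Alox12e, chr11:70322629-70322780, minus strand: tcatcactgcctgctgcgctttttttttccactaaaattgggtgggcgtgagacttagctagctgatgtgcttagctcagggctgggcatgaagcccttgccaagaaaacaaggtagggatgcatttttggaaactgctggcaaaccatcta
Alox12, chr11:70255371-70255620, minus strand: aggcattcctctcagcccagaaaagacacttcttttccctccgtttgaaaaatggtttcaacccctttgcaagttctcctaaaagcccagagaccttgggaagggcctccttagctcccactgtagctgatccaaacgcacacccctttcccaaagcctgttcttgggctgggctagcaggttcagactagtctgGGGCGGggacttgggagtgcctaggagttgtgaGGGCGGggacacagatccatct
Alox12b, chr11:69156822-69156988, plus strand: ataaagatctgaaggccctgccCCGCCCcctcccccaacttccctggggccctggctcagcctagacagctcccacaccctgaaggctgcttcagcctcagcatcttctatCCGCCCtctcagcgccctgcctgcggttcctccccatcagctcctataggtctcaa

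The printed stretch of Alox12e holds 0 GC boxes, and those of Alox12 and Alox12b hold 2 each. In the whole RefSeq window of 300 bases (250 before to 50 after the RefSeq start), Alox12 and Alox12b had 3 matches each and Alox12e, Alox8 and Alox5 had 1 each, and 35.7% of all 32851 promoter windows hold at least 1. Searched likewise were 4 other motifs on both strands, AP-1 (TGANTCA, in 7.81% of windows), the TATA box (TATAAA, 13.6%) and the nuclear receptor half-sites AGGTCA (16.3%) and AGTTCA (14.0%). None of these letters occurred in the windows of the 5 members matched in the table. A match is a description of the letters, and nothing follows from a missing one.

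Among leukocyte members, Alox15 rose most. Mouse Alox15 encodes the leukocyte-type 12/15-lipoxygenase, known from resident macrophages and eosinophils. It was at 10.9, 4.82, 3.15 and 16.1 FPKM with phytic acid, against 1.54, 1.5, 3.09 and 0.741 FPKM with MC903 alone. The groups did not overlap, but phytic acid replicate 3 and MC903 replicate 3 nearly met. Alox15 averaged 8.74 ± 5.94 FPKM with phytic acid and 1.72 ± 0.984 FPKM with MC903 alone (SD, n = 4 each), a log2 fold change of 1.69 ± 0.43 (SE; adjusted p = 0.0187 by limma). The call was lost without phytic acid replicate 1 (adjusted p = 0.0514) or MC903 replicate 4 (0.0521), and without MC903 replicate 3 the change was 1.91 (adjusted p = 0.0107 by limma).

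Alox5, the 5-lipoxygenase gene, was low and was not called. It was at 3.25, 3.17, 3.14 and 3.98 FPKM with phytic acid, against 2.59, 1.91, 2.70 and 3.84 FPKM with MC903 alone, a log2 fold change of 0.24 ± 0.15 (SE, 95% interval -0.10 to 0.58; adjusted p = 0.272 by limma). Without MC903 replicate 3 it was 0.24 (adjusted p = 0.299). Only MC903 replicate 4 lay within the range of phytic acid, and without it the change was 0.37 (adjusted p = 0.0849 by limma). Alox5ap was at 12.4, 13.5, 13.6 and 19.3 FPKM with phytic acid, against 9.58, 8.68, 4.77 and 12.1 FPKM with MC903 alone. The groups just failed to overlap, and the lowest value was that of MC903 replicate 3. Its log2 fold change of 0.72 ± 0.24 (SE) lay at the threshold (adjusted p = 0.0494 by limma). It was 0.49 (adjusted p = 0.0468) without MC903 replicate 3. The call was lost without MC903 replicate 1 (0.0777) or 2 (0.0932) and without any 1 of the 4 phytic acid libraries (0.0661 to 0.121). The Alox5ap to Alox5 ratio was 3.81, 4.25, 4.33 and 4.86 with phytic acid, against 3.70, 4.55, 1.77 and 3.15 with MC903 alone. The ranges overlapped, and the log2 difference of 0.47 did not pass (exact permutation p = 0.171, also after adjustment over the 3 ratios). Without MC903 replicate 2 it was 0.65 (exact permutation p = 0.0286), and without MC903 replicate 3 it was 0.19 (0.286).

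Leukocyte markers differed by cell type. Of 8 pan-leukocyte genes, 4 were called higher (median log2 fold change 0.65, against 0.05 over all genes tested). Their summed FPKM was 154 to 275 with phytic acid and 99.6 to 164 with MC903 alone. Ptprc, the common leukocyte antigen, was called higher (1.03), whereas Itgb2, a leukocyte integrin subunit, was not (0.63). Of 12 macrophage and monocyte markers, 5 were called higher and 0 lower, with a list median of 0.25. C1qa (0.03), Mrc1 (-0.03) and Cd163 (0.22) were among those not called. All 8 tested markers of Langerhans and dendritic cells were called higher. The summed FPKM of that list was 644 to 1360 with phytic acid and 138 to 346 with MC903 alone. Among 6 eosinophil markers, Epx and Ear1 were at or near 0 in every library, and Prg2 was at most 0.585 FPKM. Ccr3 was at 0.341 to 3.01 FPKM with phytic acid and 0.188 to 0.579 FPKM with MC903 alone. Siglecf was at 0.3 to 1.64 FPKM with phytic acid and 0.192 to 0.343 FPKM with MC903 alone. The groups of both overlapped, with the highest values in phytic acid replicate 4. Only Ear2 could be tested. It was called higher, at 86.3 to 204 FPKM with phytic acid and 9.56 to 42.2 FPKM with MC903 alone, and it is also made by macrophages. Of 5 tested T cell markers 4 were called higher. Of all genes tested, 14.2% were called higher and 11.6% lower. Among 6 tested neutrophil markers, 3 (Cxcr2, Mmp8 and S100a8) were called lower, while Ly6g, Ngp, Mpo, Ltf and Camp were too low to test. Of 9 mast cell markers, 2 (Fcer1a and Tpsab1) were called lower. The other mast cell markers went both ways, such as Mcpt4 (0.35) and Tpsb2 (-0.48), and the list median was -0.20. In both lists 0 were called higher by limma, by voom or at an unadjusted p under 0.05. The summed FPKM of the neutrophil markers was 14.8 to 162 with phytic acid and 123 to 750 with MC903 alone, and that of the mast cell markers was 139 to 251 with phytic acid and 160 to 266 with MC903 alone. Relative to the mean of the pan-leukocyte genes, Alox5ap differed by 0.04 ± 0.24 (SE; adjusted p = 0.871), Alox5 by -0.44 ± 0.25 (0.113), Alox15 by 1.01 ± 0.28 (0.00237) and Alox12e by 2.72 ± 0.33 (2.62e-10) by limma. With this centring their SEs were 0.24 to 0.33, against 0.15 to 0.60 without it. The same subtracted mean enters the spread of every gene, so these adjusted p-values do not measure the spread of each gene alone between libraries. That centring put the median log2 fold change of all genes at -0.63, against 0.05 without it, with 211 genes called higher and 7249 lower. Among the genes of related pathways described next, it ended the calls of Ptgr1, Cysltr1, Lgr6, Elovl1, Lipm, Abcc1 and Ppara. How far cell numbers enter the members' changes was not tested.

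Keratinocyte markers moved too. Of 10 suprabasal and granular markers, 6 were called higher, with a list median log2 fold change of 1.14 (0.05 over all genes tested). The summed FPKM of this list was 6140 to 8060 with phytic acid and 2370 to 5510 with MC903 alone. Among wound keratins, 3 of 4 were called lower (Krt16, Krt6a and Krt6b), and Krt17 was not called. Krt16 was at 67.3 to 299 FPKM with phytic acid and 1400 to 2980 FPKM with MC903 alone, and Krt17 at 516 to 650 FPKM with phytic acid and 648 to 889 FPKM with MC903 alone. Among 10 basal markers, 2 were called higher and 2 lower, where 14.2% of all genes tested were called higher and 11.6% lower. The summed FPKM of the basal markers was 2650 to 3120 with phytic acid and 4400 to 7970 with MC903 alone. Relative to the mean of the basal markers, the log2 fold changes were 3.47 ± 0.55 (SE) for Alox12e, 0.65 ± 0.19 for Aloxe3 and -0.07 ± 0.15 for Alox12b. Alox12e and Aloxe3 stayed called by limma (adjusted p = 0.0008 and 0.0279) and Alox12b stayed uncalled (0.790). The basal list had a median log2 fold change of -0.13. The members were not set against the suprabasal and granular list, so their change relative to those cells was not tested. Tissue make-up differed in other ways: 5 of 6 skeletal muscle markers and 2 of 5 tested adipocyte markers were called higher. The summed FPKM of the muscle markers was 5980 to 7430 with phytic acid and 2730 to 3250 with MC903 alone. Their part in the members' changes was not tested.

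**Figure D3:**
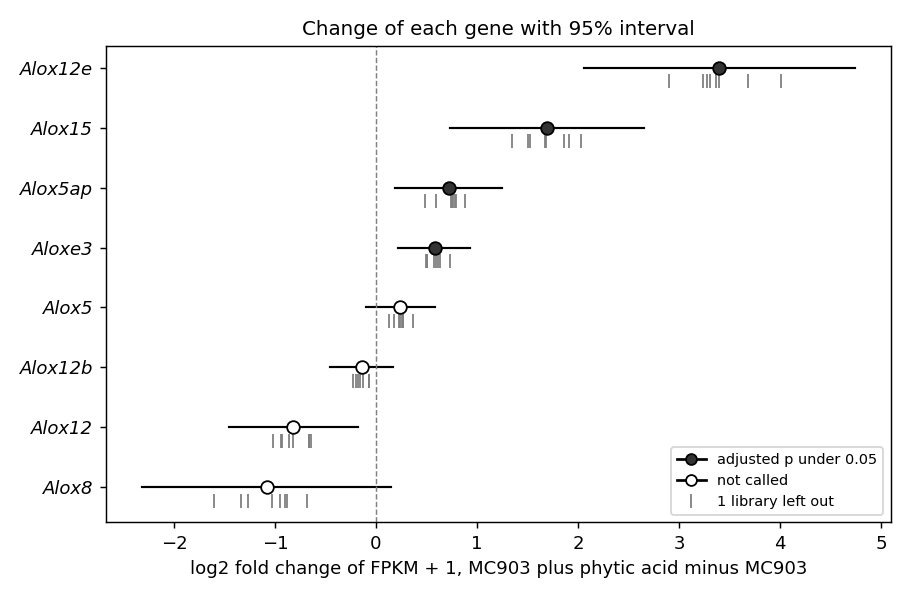
Log2 fold change of FPKM + 1 (horizontal axis, MC903 plus phytic acid minus MC903) of each gene, with its 95% interval, filled where the adjusted p is under 0.05. Grey ticks are the estimates with 1 library left out, which span 2.90 to 4.01 for Alox12e and -0.23 to -0.07 for Alox12b.

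Genes that act around the epidermal enzymes moved both ways. Of 20 genes of the corneocyte lipid envelope route, all tested, 5 rose and 5 fell, with a median log2 fold change of -0.01 (0.05 over all genes tested). Of all genes tested, 14.2% were called higher and 11.6% lower. Those that rose included Elovl1, a fatty acid elongase, at 112 ± 14.6 FPKM with phytic acid and 61.9 ± 4.69 FPKM with MC903 alone (SD; log2 fold change 0.84 ± 0.11, SE), and the epidermal lipases Lipn (1.49 ± 0.16), Lipk (1.58 ± 0.20) and Lipm (0.73 ± 0.18). Those that fell included Cyp4f39, the mouse counterpart of human CYP4F22, which hydroxylates the end of very long fatty acids before they enter the lipid that Alox12b oxidizes. Cyp4f39 was at 15.9 to 23.9 FPKM with phytic acid and 27.7 to 37.9 FPKM with MC903 alone (-0.70 ± 0.14). Tgm1, the transglutaminase of the cornified envelope, fell to 28.1 ± 2.39 FPKM with phytic acid, against 49.7 ± 5.95 FPKM (SD) with MC903 alone (-0.80 ± 0.11). Ugcg, which makes glucosylceramide (-0.65 ± 0.16), and Slc27a4, a fatty acid transporter (-0.63 ± 0.15), also fell. Without MC903 replicate 1, Ugcg was not called (adjusted p = 0.0522 by limma) and the count of those lower was 3. Abhd5, a lipase cofactor needed to make the lipid that Alox12b oxidizes, fell (-0.29 ± 0.09; adjusted p = 0.0417 by limma). It was named after its values were seen, and its call with single libraries left out is not given here. Not called were Cers3 and Sdr9c7, named after their values were seen. Cers3, the ceramide synthase of very long chains, differed by 0.04 ± 0.12, and Sdr9c7, a dehydrogenase that acts on the oxidized lipid, by -0.03 ± 0.11 (adjusted p = 0.847 and 0.868 by limma).

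Around 5-lipoxygenase, 13 of 16 leukotriene synthesis genes were tested, and 2 rose and 1 fell (median 0.20), shares near the 14.2% higher and 11.6% lower of all genes tested. Ptgr1, a reductase that inactivates leukotriene B4 and prostaglandins, was at 51.5 to 72.2 FPKM with phytic acid and 25.5 to 32.1 FPKM with MC903 alone (log2 fold change 0.98 ± 0.13, SE; adjusted p = 0.00132 by limma). Abcc1, an exporter of leukotriene C4, rose by 0.43 ± 0.12, a call that held without MC903 replicate 3 or phytic acid replicate 4 and was lost without any other single library (adjusted p of 0.0606 to 0.0898). Ltc4s, leukotriene C4 synthase, fell to 1.57 ± 0.417 FPKM with phytic acid, against 3.56 ± 1.55 FPKM (SD) with MC903 alone (-0.78 ± 0.24; adjusted p = 0.0427). Its call held without MC903 replicate 3 and was lost without any other single library (0.0501 to 0.106). Lta4h, which makes leukotriene B4, was even across libraries, at 10.6 to 12.2 FPKM with phytic acid and 10.2 to 11.7 FPKM with MC903 alone. Of 14 receptors of these mediators 5 were tested. Cysltr1, a receptor of the cysteinyl leukotrienes, rose to 4.40 ± 1.28 FPKM with phytic acid, against 1.78 ± 0.165 FPKM (SD) with MC903 alone (0.93 ± 0.16; adjusted p = 0.00388). Lgr6, a stem cell marker of skin also described as a receptor of maresin, rose (0.91 ± 0.23), a call lost without MC903 replicate 1 (0.0508). Ltb4r1, the high-affinity leukotriene B4 receptor, fell (-0.48 ± 0.13), with groups of 8.21 to 11.2 FPKM with phytic acid and 12.2 to 16.4 FPKM with MC903 alone. Leaving out phytic acid replicate 1 or 3, or MC903 replicate 2 or 4, ended that call (adjusted p of 0.0531 to 0.0625).

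Lipoxygenase products are ligands of the peroxisome proliferator-activated receptors. In the list of 8 genes with these receptors, 4 fell and 1 rose (median -0.52, against 0.05 over all genes tested). Of all genes tested, 11.6% were called lower and 14.2% higher. Ppara rose (0.54 ± 0.13, SE) and Ppard fell (-0.75 ± 0.16), whereas Pparg (0.18 ± 0.12) and Rxra (0.25 ± 0.14) were not called. Fabp5, an epidermal fatty acid binding protein, was at 192 to 293 FPKM with phytic acid and 791 to 1410 FPKM with MC903 alone (-2.41 ± 0.21). Crabp2, a retinoic acid carrier (-2.31 ± 0.32), and Gpx2, a glutathione peroxidase (-1.14 ± 0.12), were the others that fell. The rise of Ppara was lost without MC903 replicate 1 (adjusted p = 0.0542 by limma).

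**Figure D4:**
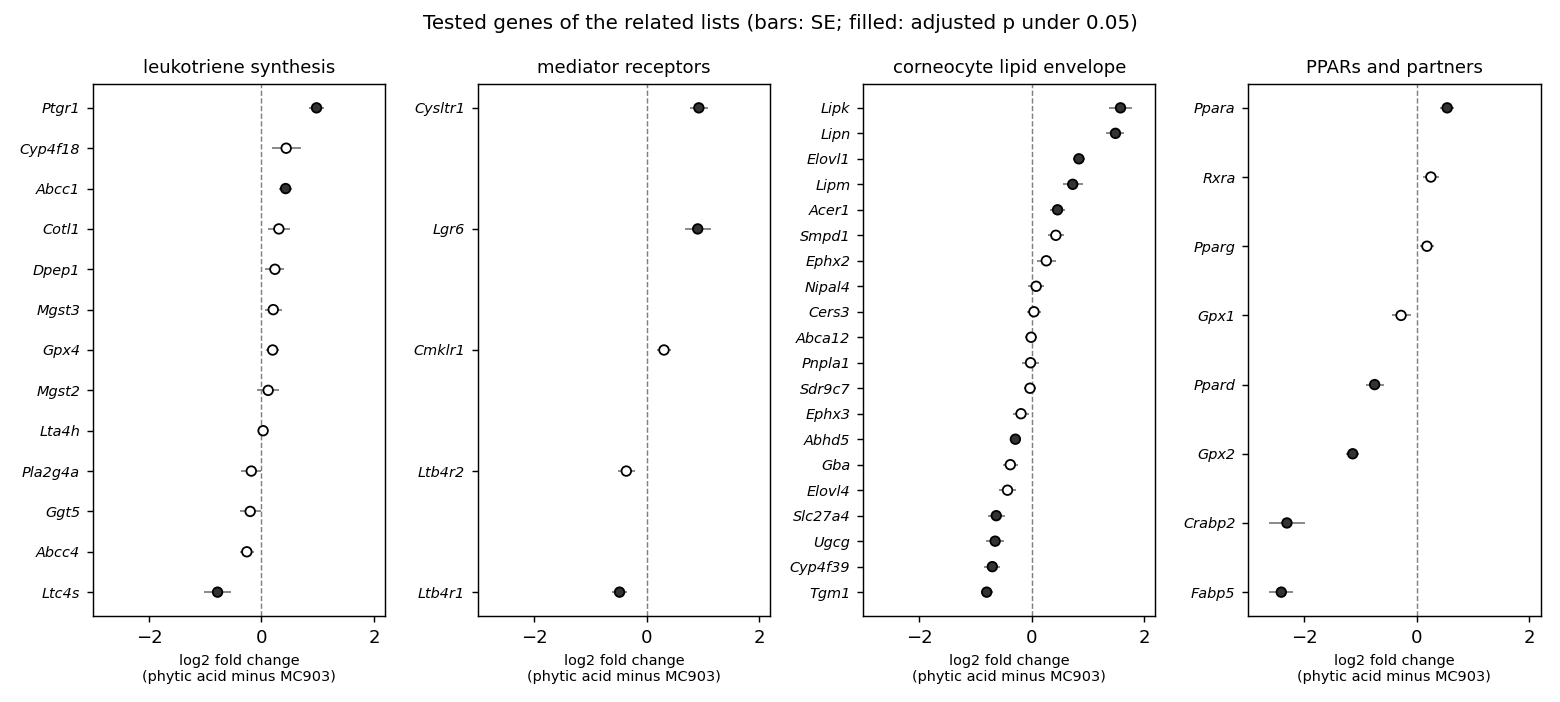
Log2 fold change of FPKM + 1 (horizontal axis, MC903 plus phytic acid minus MC903; bars are the SE) for the tested genes of the 4 related lists, filled where the adjusted p is under 0.05. The lists go both ways, from Lipk at 1.58 to Fabp5 at -2.41.

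Of the genes next to the members 2 were called, where 25.8% of all genes tested were, so the count says nothing particular about them. Within 100 kb of the Alox12, Alox12e and Alox15 cluster, 6 genes were tested and 0 were called by limma, 0 by voom and 0 at an unadjusted p under 0.05, with a median log2 fold change of 0.01. With quantile normalization 1 was called. Near the Aloxe3, Alox12b and Alox8 cluster, 6 were tested, of which Vamp2, a synaptic vesicle protein gene, rose (0.60 ± 0.14, SE) and Aurkb, a mitotic kinase gene, fell (-0.53 ± 0.14). Near Alox5 1 gene was tested and near Alox5ap 2, and 0 were called by limma, by voom or at an unadjusted p under 0.05.

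The genes with profiles most like each member were found by the root mean square difference of centred log2 values over the 8 libraries. Nearest to Alox12e were Ccl27a, a skin chemokine gene (0.538), and Car3, a carbonic anhydrase gene (0.589), where the spread of Alox12e itself was 1.93. Nearest to Alox15 were H2-M2 (0.308) and Cd209e (0.310), against a spread of 1.07, and nearest to Alox5ap were Folr2 (0.119) and Itgb2 (0.128), against 0.502. Aloxe3 was nearest to Cnst (0.0755) and Kazald1 (0.103), against 0.362, and Alox12 to Tns4 (0.174) and Epas1 (0.211), against 0.584. Nearest to Alox12b were Sys1 and Irak3 (0.107 each, against 0.194), to Alox5 Tdrd7 (0.0778) and Kif3b (0.0884), against 0.234, and to Alox8 Krt84 (0.589) and Gsdmc2 (0.595). Among the members the smallest difference was between Alox12b and Alox5 (0.345), neither of them called. It was larger than the spread of either gene (0.194 and 0.234), so it does not mark profiles that are alike. The largest difference was between Alox12e and Alox12 (2.45).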

How the data were processed

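The authors deposited 1 table of FPKM values per gene and library. Cutadapt, HISAT2, TopHat2, DESeq and build mm10 are named without roles or versions, per the submitters' processing notes, and no source used here gives the annotation or the strand setting. TRIzol was used for RNA and a SMARTER mRNA-Seq kit for the libraries, per the labels' protocols. The table had 21959 rows. Excluded were 51 rows with no name, which held 0.016% to 0.0238% of each library's FPKM sum. Where a name had several rows (21 names), the row of highest mean was used. FPKM times GENCODE M21 exon length came within 0.05 of whole reads in all libraries for 17509 of 17980 genes (97.4%), which gave the library totals. All 8 members were among these.

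Testing was limited to the 12165 genes, all members among them, that reached 1 FPKM in 4 or more libraries. They were tested as log2(FPKM + 1) with limma 3.58.1 in R 4.3.3 (eBayes with trend), two-sided, group as the single factor. Ratios used an exact permutation test with a pseudocount of 0.01. The members and lists were chosen with earlier results of these data known. Named were all members, up to 4 called genes per list and direction by smallest p, called neighbours, and the 2 nearest profiles per member. Other list genes (Abhd5, Cers3, Sdr9c7, Lta4h, Pparg, Rxra, Fpr2, Oxgr1, Gpr31b) and markers were named after their values were seen. Deviations of same-numbered libraries correlated at -0.286 to 0.225, so no pairing by number was seen. So few values cannot exclude a pairing, and the sources do not say what the numbers stand for. Alternatives were other pseudocounts, filters and scalings, centring on keratinocyte or leukocyte genes, library weights, eBayes without trend, a replicate block, voom on the recovered reads and leaving out each library.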

Additional observations from a re-analysis of the deposited data

Results flagged for a closer look

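In each group of 4 libraries, a library was marked when its gap to the nearest other was too large a part of the group's range (above Dixon's 95% critical value), which chance gives in about 1 of 20 groups. Of 54 groups tested (the members and the named list genes), 8 were marked. Among the members, Alox8 was high in phytic acid replicate 4, at 5.93 FPKM, and without that library its fall was called (log2 fold change -1.60, adjusted p = 0.0304 by limma). Alox5 was also high in phytic acid replicate 4, at 3.98 FPKM. In the related lists, Fabp5 was high in phytic acid replicate 4 (293 FPKM) and Lipn in phytic acid replicate 3 (26.2 FPKM). In MC903 libraries, Ptgr1 was low (25.5 FPKM) and Cysltr1 high (2.03 FPKM) in replicate 1, Ppara was high in replicate 3 (1.87 FPKM), and Ppard was high in replicate 4 (7.74 FPKM).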

How the results depend on the processing

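Alox12e was called under all 21 alternatives (2.72 to 4.01). Alox15 was called under 18 of 21, Aloxe3 under 16 of 21 and Alox5ap under 7 of 21, while Alox12 was called under 6 of 20, Alox8 under 2 of 20, Alox12b under 1 of 21 and Alox5 under 0 of 20. With 1 library left out, 1 to 5 members and 2013 (without MC903 replicate 1) to 3979 genes were called. The count of all genes was 7460 centred on leukocyte genes, 4796 with library weights and 2046 with a replicate block. Under that block Alox15 was not called (adjusted p = 0.0521), and the ratios of Aloxe3 (0.78) and Alox12e (3.73) to Alox12b had an exact permutation p of 0.125, the smallest that 4 pairs allow. With 1 library left out, these ratio differences were 0.63 to 0.93 and 3.09 to 4.50 on the log2 scale, and that of Alox5ap to Alox5 was 0.19 to 0.65. Centred on leukocyte genes, Aloxe3 (-0.10), Alox5 (-0.44), Abcc1 (-0.25) and Ppara (-0.14) reversed, Alox12b was called (-0.82), and Ptgr1 (0.30), Cysltr1 (0.25), Lgr6 (0.23), Elovl1 (0.16) and Lipm (0.05) were no longer called. That centring shifts all genes down, and other causes were not tested. Alox5ap was not called with pseudocounts of 0.1 (adjusted p = 0.0515) or 0.01 (0.0520), without a filter (0.0879), with median-of-ratios (0.0776) or quantile scaling (0.0672), without trend (0.0510) or by voom (0.0517). The lowest value of a member rests on 68 reads. Called higher and lower were 1722 and 1412 genes, against 1584 and 1712 with median-of-ratios scaling, 1652 and 1748 with quantile normalization and 211 and 7249 centred on leukocyte genes. Alox12, Alox8 and Alox5 have no value under a filter of mean FPKM of at least 5. Receptors such as Fpr2, Oxgr1 and Gpr31b were too low to test.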
